A study of Mus musculus with 26 samples.

Results

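The hearts compared were those of mouse embryos labelled null and wild-type for a line in which the NK2-specific domain of Nkx2.5 is deleted, 4 null hearts (3, 4, 8 and N3) and 5 wild-type hearts (1, 2, 7, 9 and N1) of the 13 hearts in the series. They were chosen by the genotype in their titles. Each heart was taken whole at embryonic day 12.5, and its total RNA was run on an A and a B oligonucleotide array, so the comparison rests on 18 of 26 arrays. The other 4 hearts, labelled heterozygous, entered the fit, where they bear on the spread and on the level of each lot. The labels give no strain, sex, litter or treatment, name no further allele and do not say whether the hearts came from separate litters, so p-values measure only the spread between these hearts. Hearts fall into lots by number, 1 to 6, 7 to 12 and N, and each lot held both genotypes.

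Nkx2.5 is a homeodomain transcription factor of cardiac progenitors and cardiomyocytes that acts with factors such as Gata4, Tbx5 and Srf on genes of the sarcomere, the natriuretic peptides and the conduction system. The NK2-specific domain is a short conserved stretch carboxy-terminal to the homeodomain in most NK2-class proteins, outside the part that binds DNA. At midgestation the heart is a mixture of cardiomyocytes, endocardium, cushion mesenchyme, epicardium and blood. The comparison asks what accompanies the null genotype for the domain across these cells.

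The values were signal intensities in the units of the deposited tables, where the middle of each complete array averages 1500. A floor of 887 on A and 1373 on B arrays marked the level of noise, and the number of arrays limits the precision. The share of probe sets above the floor was 47.3% to 52.8% on null and 49.0% to 52.0% on wild-type A arrays, and 30.7% to 34.3% and 30.3% to 35.9% on B arrays. One A array of a wild-type heart (1) and 3 B arrays, of wild-type hearts 9 and N1 and null heart 3, were over 50% blank, so many genes have fewer than 9 values. As a measure of RNA quality, the Gapdh control signal at the 3′ end minus that at the 5′ end (log2) was -0.15 ± 0.09 (SD) over 5 wild-type and -0.14 ± 0.03 over 4 null A arrays. On B arrays it was -0.08 ± 0.09 and -0.04 ± 0.08. The highest B value was 0.08, in null heart 8, and wild-type hearts 1, 7 and 9 stood at 0.06, -0.15 and -0.14. The labelled tissue showed its defining genes: 16 of the 17 sarcomere genes on the arrays passed the filter, and 0 of 16 liver genes passed it. The annotation names 0 probe sets Nkx2-5, so the genotype labels could not be checked on the arrays.

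Some B arrays stood apart in their bright probe sets. On the B array, 95 tested probe sets had a mean log2 signal of 15 or more, and each was set against its median over the hearts. The median log2 difference from that level was -0.68 in wild-type heart 7, -1.08 in wild-type heart 9 and -0.67 in heterozygous heart 12, all of the lot 7 to 12. Null heart 8, the only null heart of that lot, stood at 0.24, and the other hearts lay between -0.28 and 0.31. Between null and wild-type hearts these probe sets differed by a median of 0.96 within hearts 7 to 12, against -0.01 within hearts 1 to 6 and 0.20 within the N hearts. The 65 such probe sets of the A array differed by 0.02, 0.11 and 0.25 in the same order. Blank cells left fewer probe sets in places, so the lots were not compared over one set. The A value within hearts 7 to 12 rests on 39 and the B value within the N hearts on 43. On the B array, wild-type hearts 9 and N1 had 43 with a value and null heart 3 had 33. Values of bright genes are given below also without the hearts numbered 7 to 12, a setting added after the data were seen.

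Of 4494 probe sets, 4 changed between null and wild-type hearts (0.089%, adjusted p under 0.05 in limma with lots as a block). Ntn1, which encodes the secreted guidance protein netrin 1, fell, to nearly the same extent in every lot. Tnni2, troponin I of fast skeletal muscle fibres, rose. Probe sets w08218_s_at on the B array and aa217487_s_at on the A array, neither of which carries a gene name in the annotation used here, fell. At an unadjusted p under 0.05, 75 probe sets were higher (1.67%) and 70 lower (1.56%) in null hearts, 145 in all where 5% of the tests would be 224.7. Every null heart lay above every wild-type heart for 45 of the 4390 probe sets with at least 3 values in each genotype (1.03%), and below every one for 44 (1%).

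Ntn1 signal was 4680, 4214, 3795 and 3979 in wild-type hearts 2, 7, 9 and N1, with a blank cell in heart 1. In null hearts 3, 4, 8 and N3 it was 2132, 2635, 2024 and 2014. The groups did not overlap, and the highest null heart stood well under the lowest wild-type heart. The means were 4167 ± 382 (SD, n = 4) and 2201 ± 294 (n = 4), a log2 difference of -1.01 ± 0.16 (SE, adjusted p = 0.0302 in limma). Within hearts 1 to 6, 7 to 12 and N the log2 difference was -0.98, -0.98 and -0.98. Netrin 1 signals through receptors of the Dcc and Unc5 families and is best known from axons and from endothelium.

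Tnni2 signal was 2290, 993, 1201 and 1316 in wild-type hearts 2, 7, 9 and N1, and 4959, 4184, 2997 and 9144 in null hearts 3, 4, 8 and N3. All null hearts lay above all wild-type hearts, and null heart N3 was the highest of them. The log2 difference was 1.67 ± 0.26 (SE, adjusted p = 0.0368 in limma), and it was 0.99, 1.46 and 2.80 within hearts 1 to 6, 7 to 12 and N. Wild-type hearts 7, 9 and N1 lay not far above the floor of 887. With the floor at 3 times the noise the log2 difference was 1.55 (adjusted p = 0.0766 in limma). The gene is a subunit of the troponin complex, which holds the thin filament of muscle under the control of calcium. Its probe set carries the suffix by which the array design marks probes shared by related genes, so a paralogue's signal cannot be told apart from its own. The same limit holds for other probe sets with this suffix. Among those named below are Tmsb10, Aldoa, Pkm, Actc1, Myl2, Myl1, Hba-a1, Hbb-b2, Cox4i1 and Rpl37a.

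The w08218_s_at signal was 10687, 9936, 10731, 8716 and 9715 in wild-type hearts 1, 2, 7, 9 and N1. It was 3568, 5328, 2391 and 3403 in null hearts 3, 4, 8 and N3. No null heart reached the lowest wild-type heart, and the log2 difference was -1.50 ± 0.21 (SE, adjusted p = 0.0188 in limma). The 4 heterozygous hearts lay between 6207 and 10667, above every null heart. Probe set aa217487_s_at read 3667, 2225, 2912, 7341 and 2485 in the wild-type hearts, in the same order. In the null hearts it read 448, 883, 188 and 674, all of them under the floor. The wild-type mean of log2 values was therefore at least 3.80-fold above the null level, the log2 difference from floored values being -1.84 ± 0.30 (SE, adjusted p = 0.0302 in limma). In whole hearts, fewer cells of a type and less RNA per cell cannot be told apart for these or any other probe sets.

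**Figure D1:**
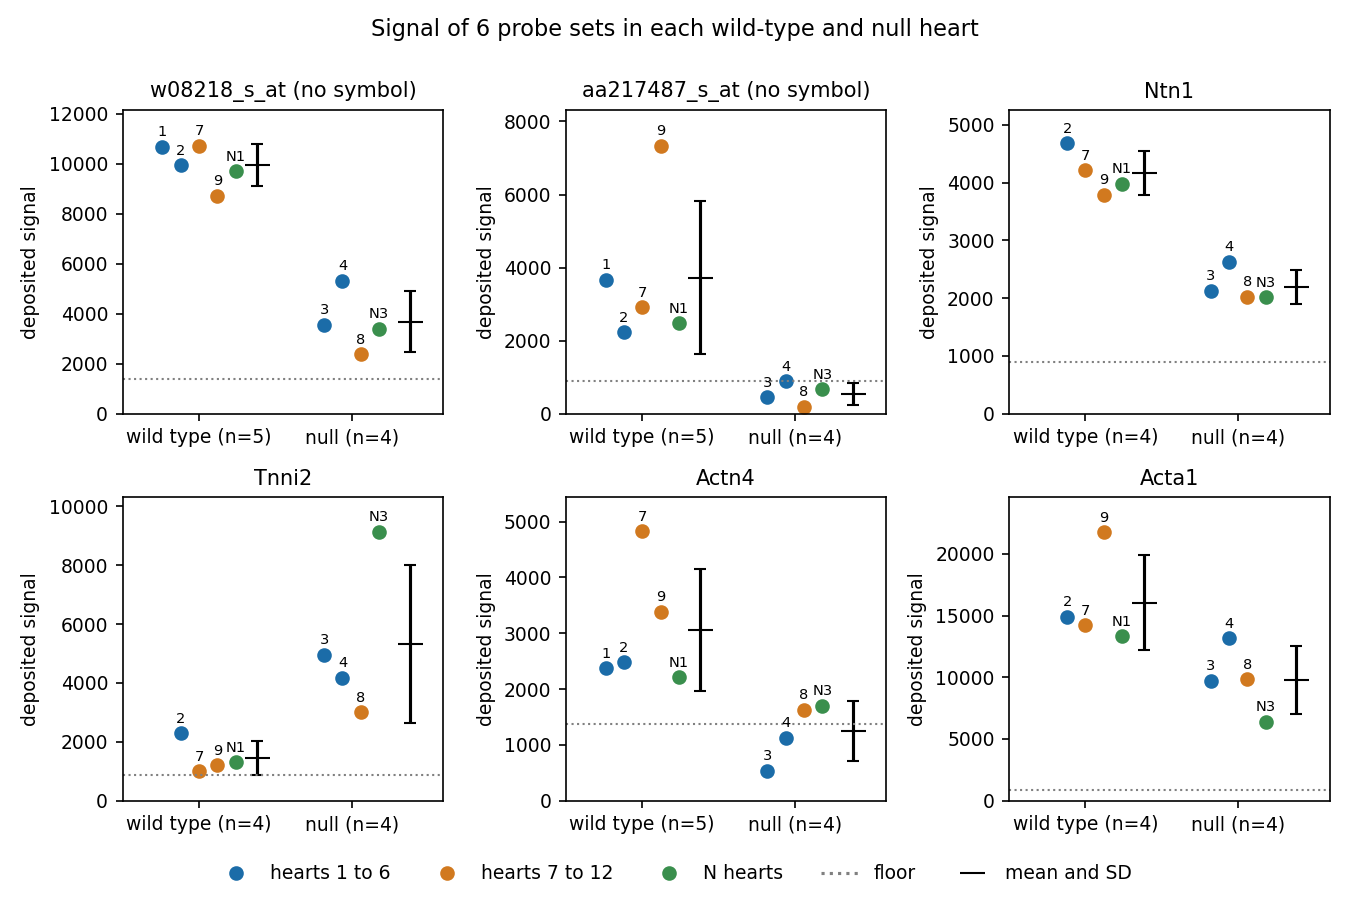
Deposited signal (linear axis from 0) of 6 probe sets in each wild-type and null heart, coloured by heart-number lot and labelled by heart number, with the mean and SD of each genotype at the right of its points and the floor as a dotted line. In all 6 panels no null heart overlaps a wild-type heart; Actn4 and Acta1 did not pass the adjusted threshold.

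Each of the calls ended when some single heart was left out, although no sign changed. For w08218_s_at it was wild-type heart N1 (adjusted p = 0.106 in limma when left out), null heart 3 (0.0722) or null heart 8 (0.186). Ntn1 ended without wild-type heart 2 (adjusted p = 0.0922), 7 (0.0811) or N1 (0.122), without any null heart (0.07 to 0.186) or without heterozygous heart 12 (0.0565). Probe set aa217487_s_at lost its call without wild-type heart 1 (adjusted p = 0.123) or N1 (0.106), without any null heart (0.0797 to 0.313), or without heterozygous heart 12 (0.0602) or N2 (0.0514). Tnni2 ended without wild-type heart 7 (adjusted p = 0.0811), 9 (0.0511) or N1 (0.106), without any null heart (0.0761 to 0.186), or without heterozygous heart 5 (0.122), 12 (0.118) or N2 (0.0514). Across these leave-outs the log2 difference ranged from -1.68 to -1.22 for w08218_s_at, from -1.08 to -0.94 for Ntn1, from -1.98 to -1.60 for aa217487_s_at and from 1.26 to 1.99 for Tnni2. Quantile scaling of the arrays ended all 4 calls (adjusted p from 0.0962 to 0.106), and a fit with no lot term kept w08218_s_at alone (0.0141). Without the hearts numbered 7 to 12 limma called 0 probe sets, with 130 at an unadjusted p under 0.05. The log2 differences were then -1.33 for w08218_s_at (adjusted p = 0.0753), -1.01 for Ntn1 (0.568), -1.62 for aa217487_s_at (0.221) and 1.77 for Tnni2 (0.501).

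**Figure D2:**
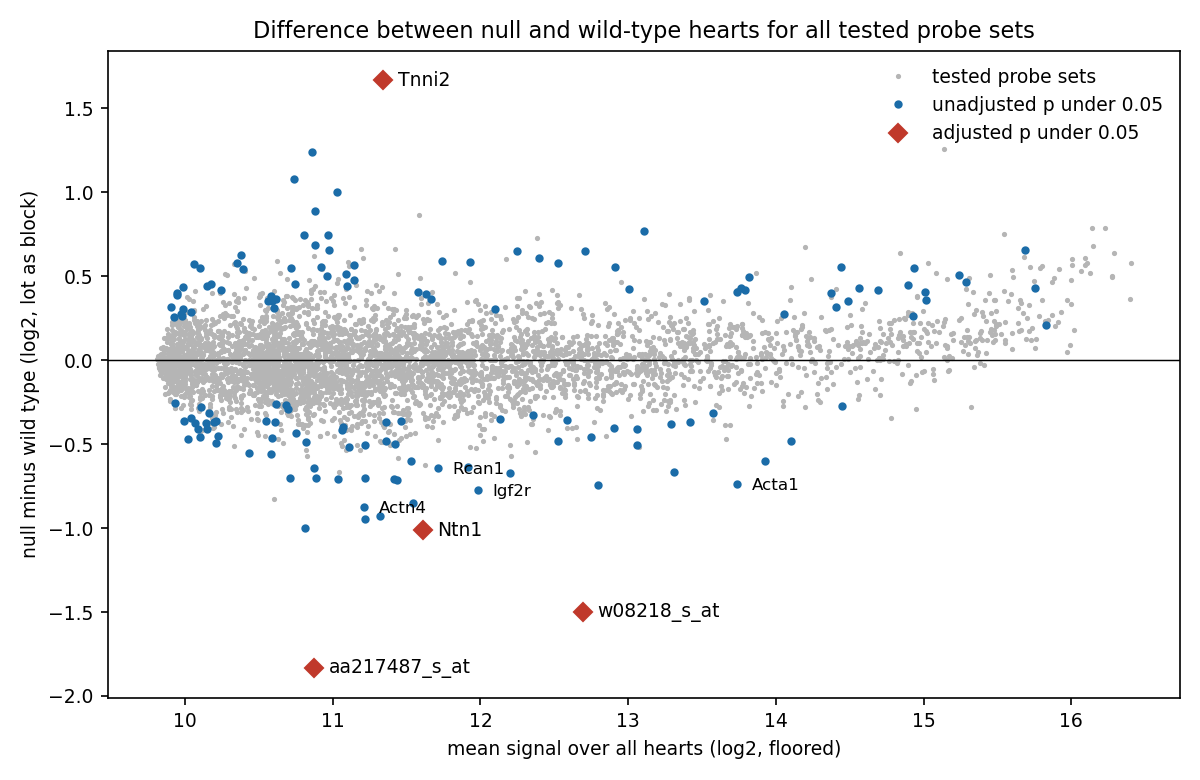
Log2 difference between null and wild-type hearts (vertical axis, lots as a block) against mean log2 signal over all hearts (horizontal axis, floored) for the 4494 tested probe sets. The 4 called probe sets are red diamonds, those with an unadjusted p under 0.05 are blue, and the cloud turns upward above a log2 signal of 14.

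Among named genes that failed the correction, the smallest p-values on the lower side belonged to Actn4, Acta1 and Igf2r. Actn4, a non-muscle alpha-actinin that crosslinks actin filaments, read 2371, 2486, 4825, 3388 and 2209 in wild-type hearts 1, 2, 7, 9 and N1. It read 535, 1130, 1629 and 1698 in null hearts 3, 4, 8 and N3, the first pair of them under the floor. The groups did not overlap, and the log2 difference was -0.87 ± 0.19 (SE, adjusted p = 0.408 in limma). A second Actn4 probe set, with 3 values per genotype, stood at -0.32 ± 0.29 and its groups overlapped.

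Acta1, a sarcomeric actin of skeletal muscle and embryonic heart, read 14905, 14227, 21742 and 13313 in wild-type hearts 2, 7, 9 and N1. It read 9718, 13169, 9846 and 6400 in null hearts 3, 4, 8 and N3. The highest null heart lay just below the lowest wild-type heart, and the log2 difference was -0.74 ± 0.17 (SE, adjusted p = 0.602 in limma), with -0.40, -0.84 and -1.06 within the lots. Igf2r, the receptor that clears insulin-like growth factor 2, differed by -0.77 ± 0.18 (adjusted p = 0.688), but its raw values overlapped: 3321 to 5869 in 4 wild-type hearts and 2146 to 3865 in 3 null hearts. Within hearts 1 to 6 and N its difference was -0.68 and -0.86.

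Rcan1, an inhibitor of calcineurin whose own transcription calcineurin induces, read 2822, 3516, 3563, 4593 and 5163 in the wild-type hearts. In null hearts 3, 4, 8 and N3 it read 2281, 2575, 2398 and 2447, a narrow range under every wild-type heart. Its log2 difference was -0.64 ± 0.18 (adjusted p = 0.999 in limma, as for the genes named next). Null hearts also lay below all wild-type hearts for Slc1a5, a neutral amino acid transporter (-0.46 ± 0.13), Slc6a6, the taurine transporter (-0.64 ± 0.20), Rrm2, the small subunit of ribonucleotide reductase (-0.67 ± 0.20), and Mtx1, a component of mitochondrial protein import (-0.55 ± 0.16). The other probe sets of Rrm2 stood at -0.32 ± 0.18 and -0.11 ± 0.13, and the second of Slc6a6 at -0.16 ± 0.16. Cct6a, a subunit of the chaperonin that folds actin and tubulin (-0.74 ± 0.22), Srsf6, a splicing factor (-0.85 ± 0.27, and -0.14 ± 0.16 by its second probe set), and Akap8, an anchoring protein of protein kinase A (-0.37 ± 0.12, and -0.17 ± 0.18 by its second probe set), overlapped between genotypes. The Cct6a difference was -1.57 within hearts 1 to 6, where null heart 4 read 2206, and -0.38 and -0.16 in the other lots. In null hearts other than N3, Slc1a5 read 498 to 904 and Akap8 780 to 905, near or under the floor of 887.

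The smallest p-values on the higher side included abundant transcripts of actin binding and glycolysis. Tmsb10, which sequesters actin monomers, read 20532, 21659, 19814, 21635 and 20531 in wild-type hearts 1, 2, 7, 9 and N1. It read 29225, 23701, 32820.5 and 26337 in null hearts 3, 4, 8 and N3, above every wild-type heart, with a log2 difference of 0.43 ± 0.12 (adjusted p = 0.999 in limma, as for the genes that follow). Its second probe set stood at 0.25 ± 0.15. Aldoa, the muscle aldolase, read 20335, 22468, 21649 and 16803 in wild-type hearts 2, 7, 9 and N1, and 29423, 25569, 25550 and 22809 in the null hearts, a log2 difference of 0.35 ± 0.11. Its other probe sets, both brighter, stood at 0.66 ± 0.24 and 0.62 ± 0.31. Pkm, the pyruvate kinase of muscle and embryonic tissue, differed by 0.45 ± 0.15 and by 0.23 ± 0.20 with its second probe set, and its N hearts did not share the direction (-0.02). Without the hearts numbered 7 to 12 the log2 difference was 0.27 and -0.02 for the Pkm probe sets, 0.44, 0.25 and 0.15 for those of Aldoa and 0.33 for Tmsb10.

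Stard10, a lipid transfer protein, was also above all wild-type hearts in the 3 null hearts with a value (0.59 ± 0.21, and 0.48 ± 0.26 by its second probe set). Differences for 1810058I24Rik (0.74 ± 0.22, but -0.12 ± 0.17 by its second probe set), Ctsd, a lysosomal protease (0.41 ± 0.15, and 0.16 without the hearts numbered 7 to 12), and Htr5a, a serotonin receptor (0.39 ± 0.13), came with overlapping groups. Several leading genes sat at the floor: Polm (0.57 ± 0.18) exceeded it in 2 of 4 wild-type and 3 of 4 null hearts, Suz12 (0.44 ± 0.15) in 1 and 3, Vsnl1 (0.39 ± 0.14) in 0 and 3, and Nes (0.40 ± 0.15) in 0 of 5 and 2 of 4. The second probe sets of Suz12 and Nes stood at 0.09 ± 0.22 and 0.23 ± 0.15.

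**Figure D3:**
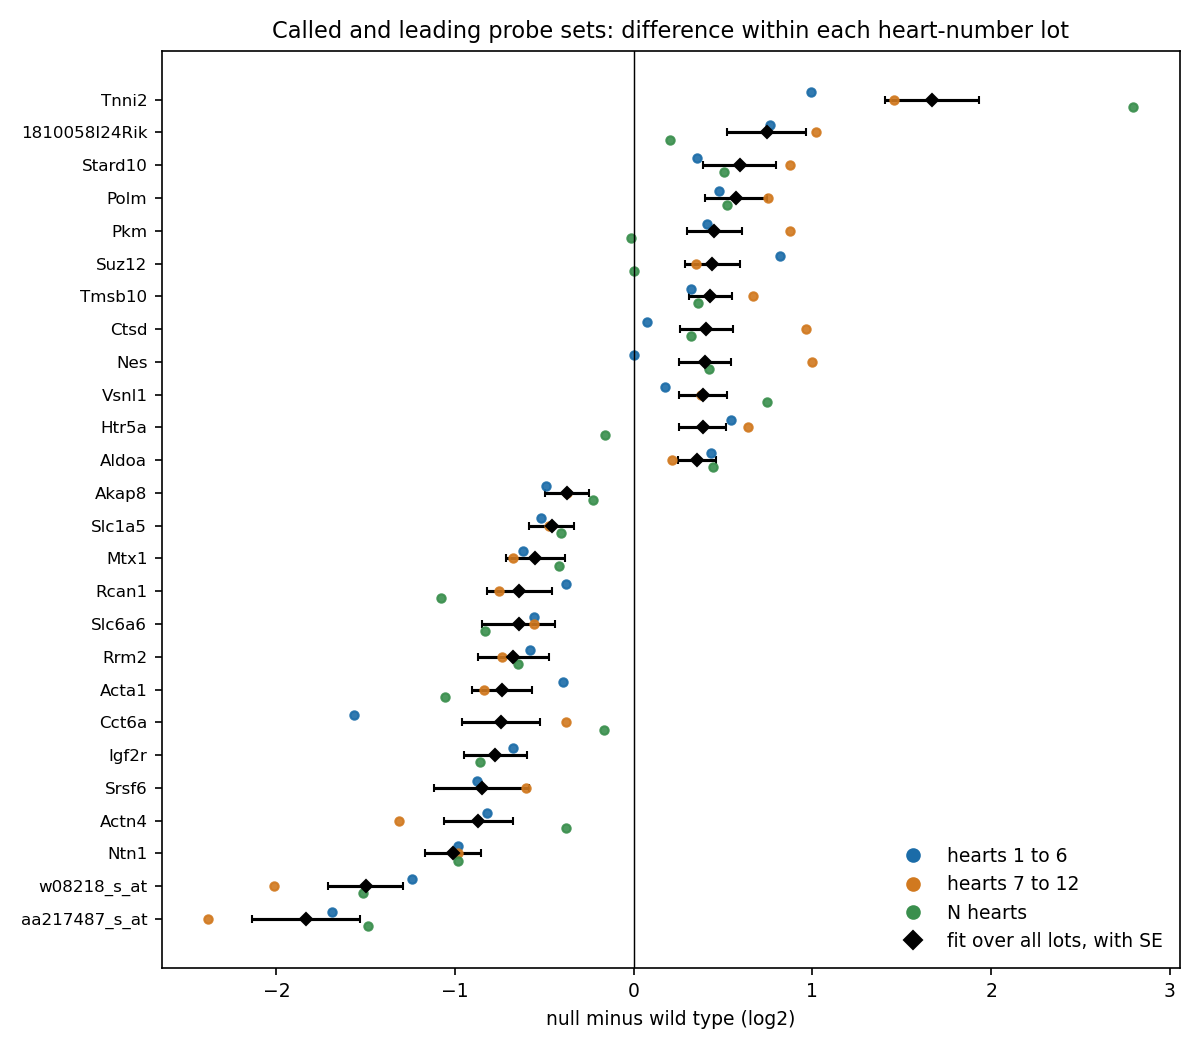
Log2 difference between null and wild-type hearts for the 4 called and 22 leading probe sets, from the fit over all lots (black diamonds, bars are the SE) and within each lot (coloured points; a lot without values of both genotypes has none). Ntn1 has almost the same value in every lot, while Tnni2 runs from 0.99 to 2.80 and Cct6a from -1.57 to -0.16.

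Promoters are shown because the comparison concerns a DNA-binding factor and because the leading genes were read as one set. RefSeq starts of assembly GRCm38.p6 were matched for 20 of the 24 called or leading genes, with 28 promoters, and Ntn1, Tnni2, Slc1a5 and Slc6a6 were not matched. The 28 promoters therefore all belong to leading genes that failed the correction, and some genes have several. In the 250 bases before each start, the core letters of an NK2 site, AAGTG on either strand, occurred in 7 of the 28 (25%) against 40.7% of 32851 promoters of the same length. The longer form TNAAGTG, which contains the shorter, occurred in 1 of the 28 (3.57%) against 10.1%. A CArG box, the site of Srf, on either strand occurred in 1 of the 28, the promoter of Acta1, against 1.47% of all. These are matches of letters in one window and no evidence of binding. Below are the Acta1 window (chr8:123894776-123895025, GRCm38.p6, minus strand), with its CArG box in capitals, first base 73 before the start, and the Akap8 window (chr17:32321239-32321488, minus strand), the only one with the longer form, with each AAGTG in capitals. Both read 5′ to 3′ on the gene's strand.
Acta1: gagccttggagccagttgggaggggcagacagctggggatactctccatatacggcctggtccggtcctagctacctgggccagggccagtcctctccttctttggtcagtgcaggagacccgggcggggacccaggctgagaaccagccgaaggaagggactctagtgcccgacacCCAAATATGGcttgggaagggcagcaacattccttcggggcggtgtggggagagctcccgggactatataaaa
Akap8: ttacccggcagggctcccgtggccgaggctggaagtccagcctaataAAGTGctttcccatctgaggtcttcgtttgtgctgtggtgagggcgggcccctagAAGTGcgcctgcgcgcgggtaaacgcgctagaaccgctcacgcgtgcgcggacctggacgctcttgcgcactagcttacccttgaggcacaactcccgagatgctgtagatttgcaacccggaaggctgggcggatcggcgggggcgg

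Over all 2733 genes, taken by their brightest probe set, 49.7% were higher in null hearts, the median log2 difference was -0.0013, and 38 genes higher and 42 lower had an unadjusted p under 0.05. Against that background the genes reported to depend on Nkx2-5 were close to balance. Of 33 listed, 18 were tested: 10 were higher and 8 lower, with a median of 0.04 (-0.03 without the hearts numbered 7 to 12), and limma called 0 of them, while 2 higher and 1 lower had an unadjusted p under 0.05. Kcne1, a regulatory subunit of cardiac potassium channels, read 3344, 3116, 2942, 2938 and 2910 in wild-type hearts 1, 2, 7, 9 and N1. It read 3904, 3851, 3850.2 and 4151 in the null hearts, all of them higher, with a log2 difference of 0.37 ± 0.15.

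Hand2, a basic helix-loop-helix factor of the right ventricle, read 1309, 1520 and 2674 in wild-type hearts 1, 2 and 7, and 2445, 4043 and 2036 in null hearts 4, 8 and N3 (0.68 ± 0.25). Cited1, a transcriptional cofactor, read 23375, 16420, 19305 and 13798 in wild-type hearts 2, 7, 9 and N1, and 9335, 17318 and 11071 in null hearts 3, 4 and N3 (-0.60 ± 0.22). Both overlapped. By their brightest probe sets the rest had an unadjusted p above 0.05: Calr 0.39 ± 0.21, Slc8a1 0.25 ± 0.16, Mef2c 0.23 ± 0.15, Myl2 0.47 ± 0.32, Actc1 0.58 ± 0.41, Cdkn1c -0.19 ± 0.16, Smyd1 -0.24 ± 0.21, Hand1 -0.15 ± 0.16, Gja5 -0.19 ± 0.23 and Ryr2 0.17 ± 0.22. The natriuretic peptide gene Nppb stood at 0.05 ± 0.15 and the gap junction gene Gja1 at -0.04 ± 0.15. Kcnh2 (-0.11 ± 0.21), Csrp1 (-0.08 ± 0.21) and Id2 (0.03 ± 0.18) were likewise near 0.

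The largest of these values moved with the hearts and probe sets used. Without null heart 8 the log2 difference was 0.09 for Calr, -0.01 for Myl2 and -0.09 for Actc1. Within hearts 1 to 6, 7 to 12 and N it was -0.36, 2.29 and 0.29 for Actc1, -0.15, 1.40 and 0.18 for Myl2, and 0.25, 1.01 and 0.00 for Calr. A second Myl2 probe set, on the A array, stood at 0.06 ± 0.14, one of Actc1 at 0.61 ± 0.46 and one of Slc8a1 at 0.10 ± 0.27. Smyd1, a muscle histone methyltransferase, and Cdkn1c, a cell cycle inhibitor, were further below the wild type by their second probe sets, at -0.999 ± 0.44 (unadjusted p = 0.049 in limma) and -0.47 ± 0.21 (0.05), with no adjusted call.

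Cardiac transcription factors and cofactors were lower more often than higher, 12 of 16 with a median of -0.09 (-0.01 without null heart N3). On the probe sets without blank cells the median was 0.10. Limma called 0, and 1 higher and 2 lower genes had an unadjusted p under 0.05. Beside Hand2 and Cited1, the LIM-domain cofactor Fhl2 read 4133 and 4338 in wild-type hearts 2 and N1 and 2015, 3721 and 2388 in null hearts 3, 4 and N3 (-0.71 ± 0.29). Mef2d stood at -0.37 ± 0.19, Fhl1 at -0.23 ± 0.14 (-0.54 ± 0.28 by its second probe set), Jarid2 at -0.25 ± 0.19, Ldb1 at -0.16 ± 0.28, Lmo4 at -0.09 ± 0.19, Meis1 at -0.09 ± 0.21, Tead2 at -0.07 ± 0.24 and Foxc2 at -0.03 ± 0.14. The Nkx2.5 partner Gata4 stood at -0.09 ± 0.28 and its relative Gata6 at 0.15 ± 0.13. Zfpm1 was at 0.10 ± 0.24, with another probe set of the opposite sign.

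Axon guidance genes, the list to which Ntn1 belongs, did not share its direction: 9 of 16 were higher, with a median of 0.07. Apart from Ntn1, none of them was called by limma or had an unadjusted p under 0.05. The netrin receptor Unc5c stood at -0.11 ± 0.18. Among ephrins and their receptors, Efna2 stood at 0.51 ± 0.29, Efnb3 at -0.25 ± 0.17, Efnb2 at 0.05 ± 0.20 and Ephb3 at 0.15 ± 0.34. Semaphorins and their receptors were Sema4b (-0.19 ± 0.14), Sema4d (-0.08 ± 0.12), Sema4a (0.16 ± 0.26), Nrp1 (0.16 ± 0.20), Plxnd1 (-0.12 ± 0.19) and Plxnb2 (0.11 ± 0.19), with other probe sets of opposite sign for Sema4d and Plxnb2. The cytoskeletal effectors were Evl (-0.49 ± 0.30), Vasp (0.24 ± 0.29), Dpysl3 (0.21 ± 0.26) and Ablim1 (0.10 ± 0.15).

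Sarcomere genes were higher in 11 of 16, with a median of 0.07, and limma called 0 of them, with 1 higher and 2 lower at an unadjusted p under 0.05. Beside the lower Acta1 and Fhl2, Tnni3, the cardiac troponin I, read 41538, 37270, 28426, 22474 and 38974 in wild-type hearts 1, 2, 7, 9 and N1 and 39328, 59611 and 46333 in null hearts 4, 8 and N3 (0.51 ± 0.22). The list's mean in null heart 8 was 0.61 above wild-type hearts 7 and 9, against -0.25, -0.01 and -0.04 in null hearts 3, 4 and N3. Its median in null heart 8 was 0.35. Actc1, the cardiac actin, read 36779 and 27376 in wild-type hearts 7 and 9, against 229274, 111742 and 73894 in wild-type hearts 1, 2 and N1. In null hearts 3, 4, 8 and N3 it read 102625, 151206, 154890 and 90178. Null heart 8 lay within the range of the other wild-type and null hearts, and wild-type hearts 7 and 9 below it. On B arrays bright probe sets read low in wild-type hearts 7 and 9 and in heterozygous heart 12 of the same lot. Whether array, heart or lot underlies these values was not tested. The list's median was -0.02 without null heart 8, -0.02 without all hearts numbered 7 to 12 and -0.01 after quantile scaling. Myl3 (0.51 ± 0.31), Tnnc1 (0.19 ± 0.13), Tnnt2 (0.09 ± 0.15), Myh6 (0.31 ± 0.34) and Des (0.01 ± 0.23) did not pass. In the fit over all lots no other tested skeletal muscle gene rose to the extent of Tnni2. Myl1, a fast myosin light chain, stood at -0.37 ± 0.17 and the myogenic factor Myog at 0.15 ± 0.15. The creatine kinase Ckm stood at -0.08 ± 0.35 (-0.35 ± 0.32 by its second probe set). Without the hearts numbered 7 to 12 Ckm stood at 0.64 (-0.12 by its second probe set), Myog at 0.18 and Myl1 at -0.04. Only 4 of the 25 skeletal muscle genes on the arrays passed the filter. Of these 4, 1 higher (Tnni2, called) and 1 lower (Myl1) had an unadjusted p under 0.05 in limma.

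Calcium handling genes were near balance (8 of 15 higher, median 0.02), with Rcan1 lowest and Asph at 0.32 ± 0.17. Conduction and ion channel genes were higher in 9 of 14 (median 0.08), led by Kcne1. Atrial and chamber genes were balanced at 5 of 10. Genes of trabeculation and myocardial growth were lower in 7 of 13 (median -0.10), with the cyclin Ccnd2 at -0.49 ± 0.25 and the matrix proteoglycan Vcan at 0.33 ± 0.17 (0.31 ± 0.21 by its second probe set). Limma called 0 genes in these lists, where 2 genes higher (Kcne1 and Hand2) and 2 lower (Rcan1 and Cited1) had an unadjusted p under 0.05.

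Markers of the other cell types of the heart had medians between -0.12 and 0.03. Endothelial and endocardial genes were lower in 13 of 18, with a median of -0.12 that stayed negative in all 31 alternative settings. Limma called 0 of them, and 1, Ets1, had an unadjusted p under 0.05. It was higher (0.51 ± 0.21), with its second probe set at -0.17 ± 0.20. The receptor Kdr stood at -0.54 ± 0.32 and the flow-responsive factor Klf2 at -0.42 ± 0.22. The list's mean was -0.20, -0.09, -0.02 and -0.11 in null hearts 3, 4, 8 and N3 against the wild-type hearts of their lots. Its median in the same hearts was -0.07, -0.11, 0 and -0.01. Cushion mesenchyme genes split 5 and 5, with Twist1 at -0.37 ± 0.17, and epicardial genes were lower in 4 of 6. Smooth muscle genes were lower in 6 of 9, with Tpm2, a tropomyosin, at -0.70 ± 0.25.

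Genes of red cells split 9 and 9, with a median of -0.0004. In null heart 8 the list's mean was 0.86 and its median 0.23 against wild-type hearts 7 and 9, and the medians in null hearts 3, 4 and N3 were 0.36, 0 and -0.15. The alpha-globin gene Hba-a1 (1.26 ± 0.79) read 227332, 79920, 6712, 2117 and 26726 in wild-type hearts 1, 2, 7, 9 and N1. It read 50929, 102404, 128569 and 42054 in null hearts 3, 4, 8 and N3. Wild-type hearts 7 and 9 read lowest, and null heart 8 lay within the range of the others. Without the hearts numbered 7 to 12 the log2 difference was -0.38. The beta-globin gene Hbb-b2 stood at 0.47 ± 0.38. Leukocyte genes (7 tested, median -0.06) and neuronal genes (3 tested, 0.03) were few. Lung and foregut (2 genes), cartilage (1 gene) and liver (0 genes) were too few to describe, and the 2 tested sex-linked genes, Xist and Eif2s3x, stood at -0.12 ± 0.16 and -0.01 ± 0.17. Limma called 0 genes in the lists of this and the preceding paragraph, and beside Ets1, 2 genes in them, Tpm2 and Dcn, were lower with an unadjusted p under 0.05.

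Glycolysis and hypoxia genes were higher in 15 of 21, with a median of 0.16 that stayed positive in all 31 alternatives (0.10 to 0.23, with 0.11 without the hearts numbered 7 to 12). Limma called 0 of them, and 2, Pkm and Aldoa, had an unadjusted p under 0.05. The list's mean was 0.14, 0.14, 0.31 and 0.11 in null hearts 3, 4, 8 and N3, positive in each. Pgam1, a phosphoglycerate mutase, stood at 0.31 ± 0.16, and the lactate transporter Slc16a1 stood at -0.45 ± 0.26, but at -0.07 ± 0.21 by its second probe set and at -0.07 without null heart 8. Genes of the tricarboxylic acid cycle and pyruvate use were lower in 13 of 17, with a median of -0.07 that stayed negative in all 31 alternatives. Genes of fatty acid oxidation were lower in 17 of 23 (median -0.08, but 0.02 without null heart 8), with Cpt1a, the gatekeeper of mitochondrial fatty acid import, at -0.37 ± 0.17 and Eci1 at 0.50 ± 0.19. Limma called 0 genes in either list, and Eci1 alone had an unadjusted p under 0.05.

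Oxidative phosphorylation genes were higher in 41 of 51 (median 0.09) and ribosomal protein genes in 33 of 38 (median 0.12). Limma called 0 in either, and 1, Rpl23a (0.26 ± 0.11), had an unadjusted p under 0.05. These lists hold bright probe sets, whose difference between null and wild-type hearts varied with the lot, as given above. The share of such probe sets higher in null hearts was 78.5%, 59.0% and 89.2% on A arrays within hearts 1 to 6, 7 to 12 and N. On B arrays it was 46.3%, 97.9% and 83.7%. Whether the low B arrays of wild-type hearts 7 and 9 account for the list medians was not tested. Of the 160 probe sets with a mean log2 signal of 15 or more, 93.8% were higher in null hearts and the median was 0.22, against 0.10 for the 213 between 14 and 15 and -0.02 for the 1853 under 11. After quantile scaling the brightest class stood at 0.02, the oxidative phosphorylation list at 0.03 and the ribosomal list at -0.002. After cyclic loess the values were 0.003, 0.04 and -0.02. The glycolysis and hypoxia median was 0.12 under both. Within hearts 1 to 6, 7 to 12 and N the log2 difference was 0.05, 1.43 and 0.21 for Cox4i1, a subunit of cytochrome oxidase, and -0.02, 1.49 and 0.23 for Rpl37a, a ribosomal protein. Without the hearts numbered 7 to 12 the oxidative phosphorylation median was 0.09 and the ribosomal median 0.08.

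Cell cycle and DNA replication genes were lower in 43 of 57, with a median of -0.08 that was negative in all 31 alternatives (-0.10 to -0.04). Limma called 0, and Tfdp1, the E2F partner, had an unadjusted p under 0.05 (-0.60 ± 0.20). Splicing genes were lower in 29 of 43 (median -0.12, and -0.04 without null heart 4), with 3 lower at that level, Srsf6, the snoRNP methyltransferase Fbl (-0.45 ± 0.18) and Srsf3 (-0.27 ± 0.11). On the 1097 probe sets without blank cells the splicing median was -0.001. Chromatin modifiers were lower in 25 of 40 (median -0.11, and -0.04 without wild-type heart N1), including Dnmt1 (-0.33 ± 0.22). Their median was 0.002 on the probe sets without blank cells. Extracellular matrix genes were lower in 30 of 45 (median -0.06, negative in all 31 alternatives), with the small proteoglycan Dcn at -0.48 ± 0.19 and elastin, Eln, at -0.50 ± 0.20. The matrix mean was -0.25 and -0.12 in null hearts 3 and 4 but 0.01 and 0.02 in null hearts 8 and N3. Limma called 0 genes of the splicing, chromatin and matrix lists, and Dcn and Eln were the 2 matrix genes with an unadjusted p under 0.05.

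Among signalling lists, the growth factor list (FGF, PDGF, EGF and insulin-like) was lower in 11 of 17 with a median of -0.14, which was -0.002 without null heart 3 and -0.27 without the N hearts. It was led by Igf2r, while its ligand Igf2 stood at 0.24 ± 0.16 and the binding protein Igfbp2 at -0.44 ± 0.21. BMP and TGF-beta genes were lower in 8 of 14 (median -0.07), with the signal transducer Smad2 at -0.34 ± 0.17. Wnt genes split 5 and 6 with Ctnnb1, beta-catenin, at -0.32 ± 0.19, Notch genes 4 and 2, and only 2 hedgehog and retinoic acid genes were tested. Apoptosis genes were lower in 10 of 13 (median -0.13) and immediate early genes in 7 of 10 (median -0.16, but 0.02 without the hearts numbered 7 to 12), the latter with Dusp1 at -0.26 ± 0.13. Amino acid and solute transport genes were lower in 8 of 13, including both transporters named above. Cholesterol and lipid synthesis genes were higher in 9 of 12 (median 0.10), with Hmgcs1, an enzyme of the mevalonate route, at 0.41 ± 0.22.

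Translation factors and tRNA synthetases (28 of 42 higher, median 0.03), antioxidant genes (17 of 27 higher, 0.03), chaperones (19 of 38 higher, 0.0004), proteasome genes (21 of 44 higher, -0.01), actin cytoskeleton and adhesion genes (25 of 54 higher, -0.01) and imprinted growth regulators (6 of 13 higher, -0.02) had medians near that of all genes. Among antioxidant genes the metallothionein Mt1 stood at 0.55 ± 0.24, and Gpx3 at 0.55 ± 0.22 with its second probe set at -0.04 ± 0.26. Dsp, the desmosomal plaque protein of cardiomyocytes, stood at 0.43 ± 0.19, and at 0.31 ± 0.17 by its second probe set. Limma called 0 genes in the lists of this and the preceding paragraph, and between 0 and 2 genes of each had an unadjusted p under 0.05 in either direction.

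**Figure D4:**
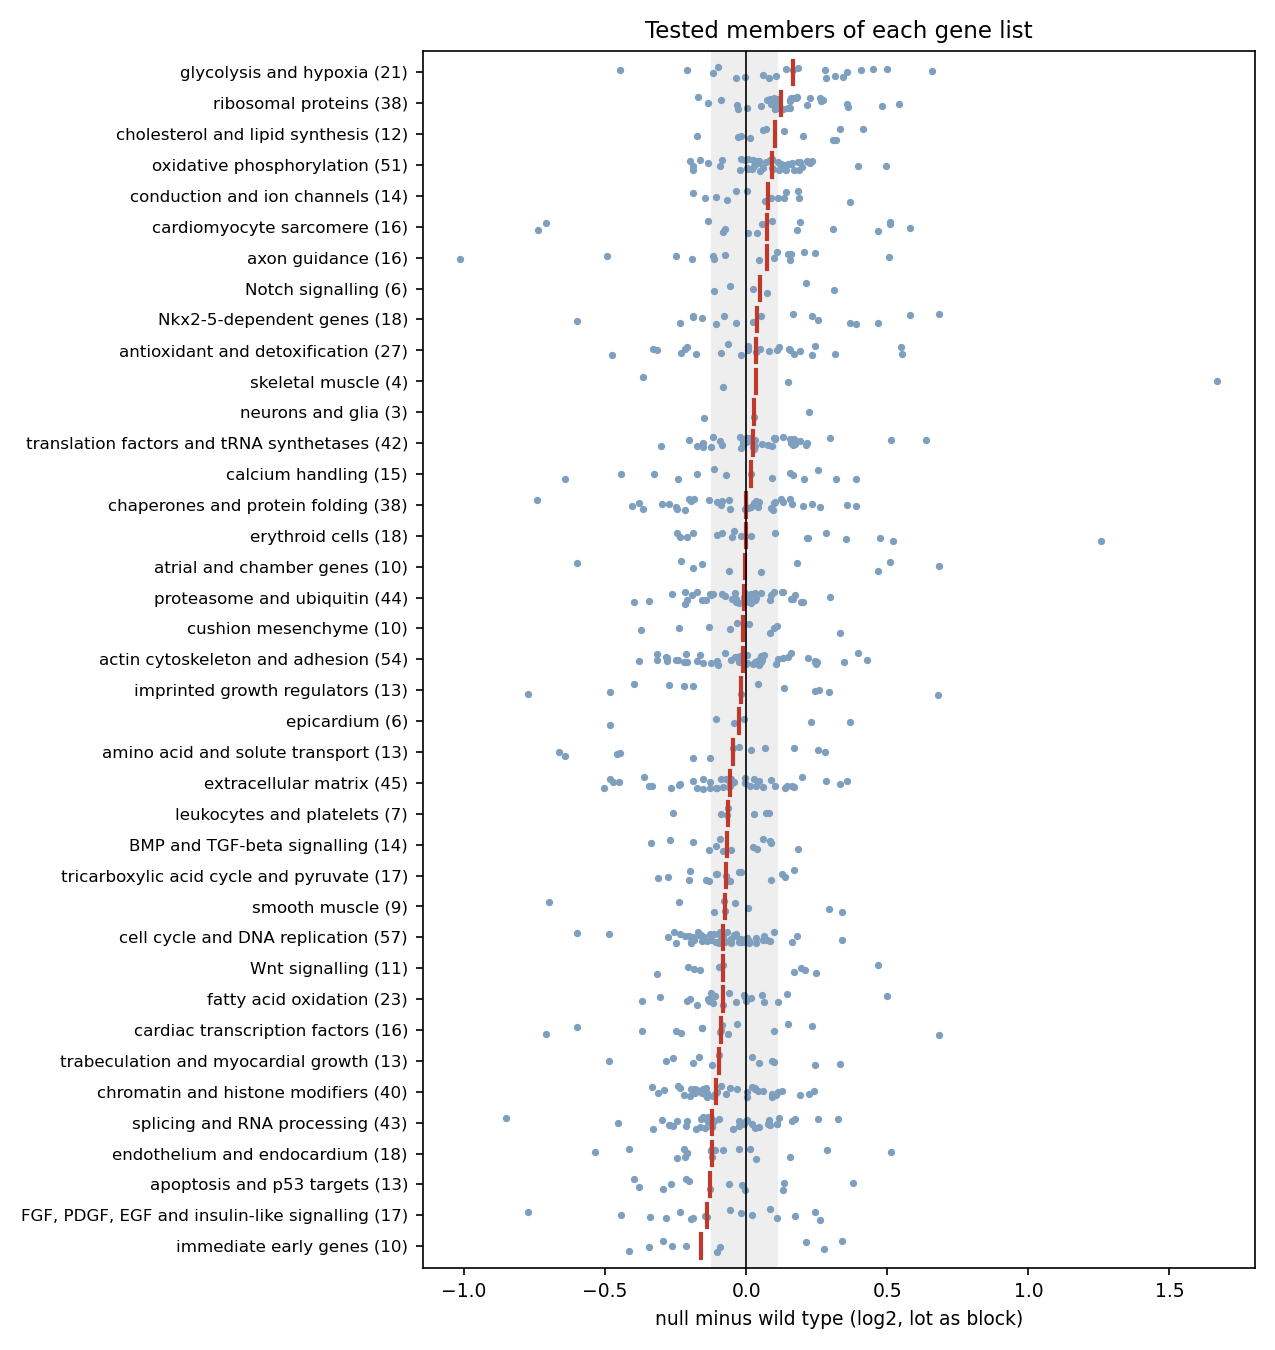
Log2 difference between null and wild-type hearts for each tested gene (points) of the lists with at least 3 tested genes, with the number tested in parentheses, the list's median as a red bar, and the median and middle range (25th to 75th percentile) of all 2733 genes as a black line and grey band. Medians run from -0.16 for immediate early genes to 0.16 for glycolysis and hypoxia, and the separate points at the far left and right are Ntn1 and Tnni2.

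**Figure D5:**
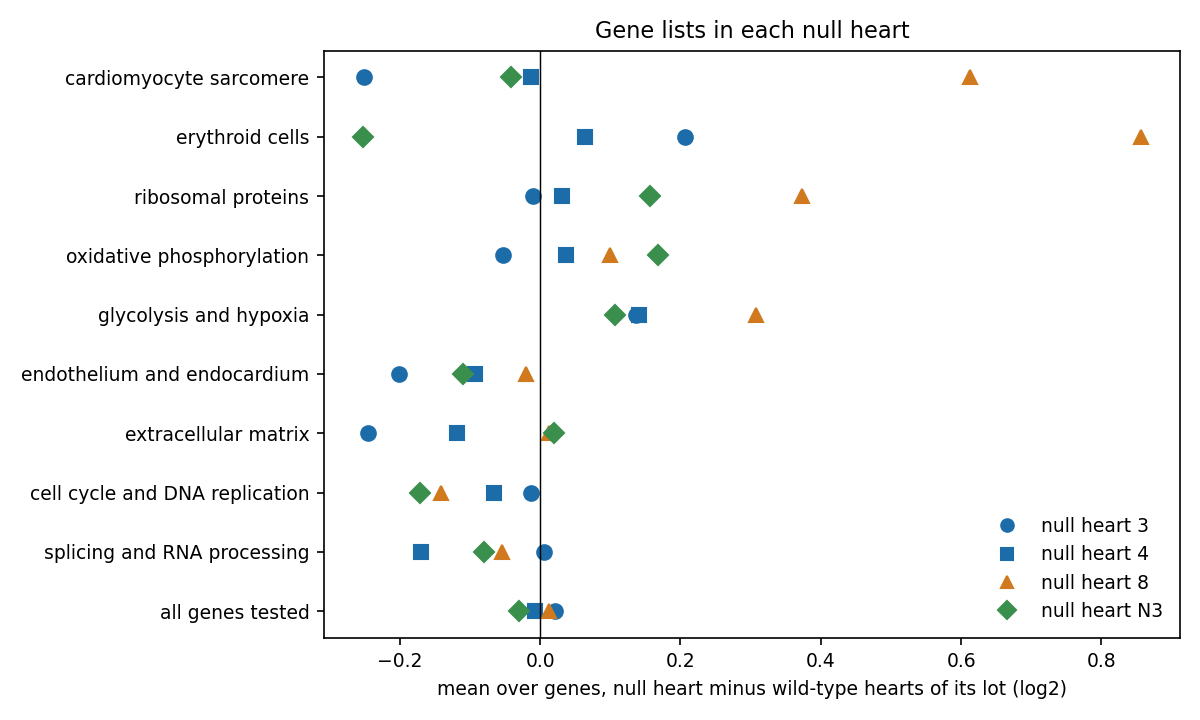
Mean over the genes of 9 lists and of all genes in each null heart, as the log2 difference from the wild-type hearts of its lot. The points of null heart 8 are set against wild-type hearts 7 and 9. On B arrays bright probe sets read low in those hearts and in heterozygous heart 12 of the same lot. Null heart 8 is the highest for sarcomere (0.61) and erythroid (0.86) genes, while glycolysis and hypoxia lies above 0 in all 4 null hearts.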

How the data were processed

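The deposited intensity values of 26 arrays, 1 A and 1 B table, were used as the authors scaled them (mean between the 2 and 98 percentiles of 1500 on complete arrays); their software: not given in the sources used here. The tables hold values below 0, and how these arose is not given in the sources used here. Blank cells were missing values. Values below 2 times the root mean square of a table's negative values were raised to that floor, and log2 was taken. Probe sets above the floor on at least 4 arrays, with at least 2 values in null and wild-type hearts, were tested with limma 3.58.1 in R 4.3.3, one fit per table over all 13 hearts with lot as a block and a variance trend, two-sided, with Benjamini-Hochberg adjustment over both tables (threshold 0.05). The method was tested on simulated data. These had 1 spread for all probe sets of an array, and changed probe sets were raised so that falls stayed above the floor. Changes near the floor and uneven spread were not covered. Named are called probe sets, the 12 smallest p-values per direction with 1 symbol and 3 values per genotype, up to 4 members per list (all of the Nkx2-5-dependent, cardiac factor and axon guidance lists), and their other probe sets; a gene stands in lists by its brightest probe set. Within-lot differences are of floored means. Symbols came from the platform annotation through RefSeq gene IDs (5551 of 5560 matched on A, 1993 of 2001 on B). The members, the 44 lists and the lot term were chosen with earlier results of these data known.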

Additional observations from a re-analysis of the deposited data

Results flagged for a closer look

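Among the 45 groups of 4 or 5 hearts examined for the called and leading probe sets, 4 held a heart far from the others. Chance gives about 1 in 20 for values above the floor. Values below the floor were raised to it first, which draws low hearts together. Stard10 read 2012 in wild-type heart 1, against 2815 to 3043 in the other wild-type hearts. Suz12 read 941 in wild-type heart 7, above the floor, against 481 to 548 below it in the others. Slc1a5 read 1077 in null heart N3, against 498 to 904 in the other null hearts. Akap8 read 1355 in null heart N3, against 780 to 905, of which null heart 4 alone exceeded the floor. The Suz12, Slc1a5 and Akap8 flags therefore depend on the floor, and the distance of these hearts without it was not tested.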

How the results depend on the processing

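No alternative called a probe set outside the 4 reported, and all 4 kept their sign wherever they had a value. The number called by limma was 1 without the lot term, where Ntn1 (adjusted p = 0.206), Tnni2 (0.113) and aa217487_s_at (0.061) were lost, and 1 with null and wild-type hearts only. It was 2 with the floor at 3 times the noise, 2 on the 1097 probe sets without blank cells and 2 without the variance trend. It was 0 after quantile scaling (134 with an unadjusted p under 0.05; cyclic loess called 4), 0 without the filter on low values (13069 tested, 188), 0 without the mostly blank arrays (133), 0 without the N hearts (180) and 0 without the hearts numbered 7 to 12 (130). Leaving out 1 heart gave 0 to 4, with 0 without wild-type heart N1 (140 with an unadjusted p under 0.05), null heart 3 (158) or null heart 8 (89); leaving out heterozygous hearts or the hearts 7 to 12 was added after the data were seen. The calls held in 23 of 31 alternatives for w08218_s_at, 14 of 31 for aa217487_s_at, 15 of 30 for Ntn1 and 8 of 30 for Tnni2. Of 232 named probe sets 69, none called, changed sign in some alternative, as did 28 of 39 list medians. No paired analysis was possible because no heart number occurs in both genotypes.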
